A study of Mus musculus with 12 samples.

Results

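The genes described here are 10 products of neutrophils: S100a8, S100a9, Ngp, Camp, Ltf, Elane, Prtn3, Mpo, Ctsg and Ly6c2. They were chosen as a named set of genes, with earlier results of these data known. They are 10 of 21755 protein-coding genes on the autosomes and the X chromosome. Around their gene bodies, with 25 kb added on either side, lay 124 of the 170207 consensus DNase I hypersensitive sites (DHSs) that result when overlapping peaks of all libraries are merged. Of these, 14 belonged to the promoter of a member (a peak midpoint within 1 kb of its start), 19 to the promoter of another gene and 91 to neither. DNase-seq, which finds accessible chromatin by where DNase I cuts, was run on 12 libraries of C57BL/6J mouse cells in a study of how Notch signalling shapes the first steps of T cell development. LSK cells (3 libraries) are lineage-negative SCA1+KIT+ haematopoietic progenitors of the marrow, taken without culture. DN1 (2 libraries), DN2a (2 libraries) and DN2b (2 libraries) are successive T cell precursors sorted by KIT, CD44 and CD25 from LSK cells grown on the immobilized Notch ligand Delta1 with SCF, FLT-3 ligand, IL-6 and IL-11. The IgG group (3 libraries) is the control culture of LSK cells with the same cytokines on human IgG1, with no ligand. DN2a and DN2b cultures also received IL-7, which DN1 cultures did not, so stage and IL-7 cannot be told apart between DN1 and DN2. For the IgG cultures the methods name no sort, so these libraries can hold a mixture of cells.

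Neutrophils make their granules in waves. Primary (azurophil) granules form first, in the promyelocyte, and hold myeloperoxidase and the serine proteases elastase, proteinase 3 and cathepsin G. Secondary granules follow in the myelocyte and hold lactoferrin, cathelicidin and the neutrophilic granule protein, while the S100A8 and S100A9 pair fills the cytosol of neutrophils and monocytes. In marrow progenitors these programmes are driven by factors of the C/EBP family and PU.1, and they are shut in cells that commit to the T lineage. A DHS at a promoter marks accessible chromatin and is not a measure of transcription.

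Each value below is a score percentile: the rank of the highest-scoring peak at a place among all peaks of that library, from just above 0 to 100, with 0 where there is no peak. Lists differed in length from 32952 peaks in IgG replicate 2 to 111582 in DN2b replicate 2, and the 3 IgG lists, with up to 37511 peaks, were the shortest of all. A peak was found at 40.9% to 44.1% of all promoters in IgG and at 48.3% to 57.1% in the other libraries. IgG replicate 3 stood apart from the other IgG libraries at several members, lower at some and alone with a peak at others, so its value is given each time and the main differences are also given without it. Sequencing depth is unknown because the lists carry no read totals. In such bulk samples a smaller share of cells with open chromatin and a lesser opening in every cell cannot be told apart.

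For 5 of the 6 members whose promoters differed between IgG and the other cultures (S100a8, S100a9, Ngp, Camp and Ctsg, without Ly6c2) the 200 bases before the start are printed. The site open in IgG runs across the start and covers only the last part of each: 61 of the 200 bases for S100a8, 165 for S100a9, 110 for Ngp, 129 for Camp and 92 for Ctsg. They are given 5′ to 3′ on the strand of the gene, from mm10 (GRCm38): S100a8 at chr3:90668778-90668977 on the plus strand, S100a9 at chr3:90695722-90695921 on the minus strand, Ngp at chr9:110419547-110419746 on the plus strand, Camp at chr9:109849618-109849817 on the minus strand and Ctsg at chr14:56102575-56102774 on the minus strand. Capitals mark matches to the C/EBP letters TTGCNNAA or the PU.1 letters GAGGAA on either strand, and the PU.1 match of S100a8 lies outside its site.
S100a8: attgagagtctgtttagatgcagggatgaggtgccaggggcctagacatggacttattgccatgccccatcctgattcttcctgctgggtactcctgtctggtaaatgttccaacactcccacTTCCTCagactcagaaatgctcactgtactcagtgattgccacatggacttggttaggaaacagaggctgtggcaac
S100a9: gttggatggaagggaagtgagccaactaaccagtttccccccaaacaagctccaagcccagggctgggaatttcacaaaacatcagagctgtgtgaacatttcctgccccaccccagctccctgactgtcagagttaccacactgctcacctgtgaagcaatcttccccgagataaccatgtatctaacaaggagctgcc
Ngp: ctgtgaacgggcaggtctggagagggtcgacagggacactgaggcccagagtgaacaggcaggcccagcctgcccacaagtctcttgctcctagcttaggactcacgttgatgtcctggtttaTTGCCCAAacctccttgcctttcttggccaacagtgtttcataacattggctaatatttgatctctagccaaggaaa
Camp: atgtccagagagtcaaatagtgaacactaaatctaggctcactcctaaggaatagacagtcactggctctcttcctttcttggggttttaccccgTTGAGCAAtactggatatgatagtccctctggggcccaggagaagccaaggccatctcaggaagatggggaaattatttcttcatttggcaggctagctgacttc
Ctsg: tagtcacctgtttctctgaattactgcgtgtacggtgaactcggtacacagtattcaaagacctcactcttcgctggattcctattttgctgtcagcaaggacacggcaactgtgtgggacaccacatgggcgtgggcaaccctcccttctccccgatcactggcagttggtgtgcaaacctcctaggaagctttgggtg

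The S100 pair had promoter peaks in IgG and nowhere else. At the S100a8 promoter, whose product is the smaller calcium-binding chain of calprotectin, the percentile was 93.5, 97.7 and 69.3 in the 3 IgG libraries and no peak was called in any of the 3 LSK, 2 DN1, 2 DN2a and 2 DN2b libraries. At the S100a9 promoter, whose product is the partner chain, it was 93.8, 97.8 and 61.4 in IgG and again no other library had a peak. The sites lay at chr3:90668917-90669106, across the start of S100a8, and at chr3:90695677-90695886, across the start of S100a9. In both, IgG replicate 3 was the lowest of the 3 and every IgG library was above every other library.

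The secondary granule genes split into 2 patterns. The Ngp promoter (chr9:110419637-110419846) had percentiles of 93.5, 92.9 and 48.9 in IgG and no peak in the other 9 libraries. The Camp promoter (chr9:109849517-109849746), which belongs to the cathelicidin precursor, had percentiles of 97.7, 91.8 and 73.6 in IgG, 6.52 in LSK replicate 3 and no peak elsewhere. So Ngp and Camp followed the S100 pair, with IgG replicate 3 again lowest. Ltf, which encodes the iron-binding lactoferrin, did not. Its promoter site (chr9:111019037-111019286) had percentiles of 12.6, 16.2 and 13.3 in LSK, no peak and 40.7 in DN1, 16.1 and 40.0 in DN2a, 38.1 and 69.3 in DN2b, and 32.3 in IgG replicate 1 with no peak in the other two IgG libraries. Both DN2b values were above all LSK and IgG values, all other groups overlapped, and the highest value was in the longest list, DN2b replicate 2. With lists of equal length the only Ltf peak left was that of IgG replicate 1, at 22.9, so the difference between IgG and Delta1-cultured means turned from -23.3 to 7.64 percentage points.

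Among the primary granule genes, Ctsg stood alone with a promoter peak in every IgG library. At the promoter of Ctsg, which encodes cathepsin G, the percentile was 86.5, 84.7 and 88.3 in IgG, 29.4 and no peak in DN1, no peak and 20.55 in DN2a, 12.9 and 42.8 in DN2b, and no peak was called in LSK. This site (chr14:56102457-56102666) thus had a weak peak in 4 of 6 Delta1-cultured libraries, all below the IgG values. Elane, the gene of neutrophil elastase, had a promoter peak in IgG replicate 3 alone, at the 66.9 percentile. Mpo, the gene of myeloperoxidase, had one in the same library alone, at 77.2. The library with the lowest values at S100a8, S100a9, Ngp and Camp was thus the one with peaks at Elane and Mpo.

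Prtn3, which encodes proteinase 3, depends on which start is used. The GENCODE record begins 5191 bp before the RefSeq start, next to the start of Plppr3. At the GENCODE start a peak was called in DN1 replicate 1 (45.4) and DN2b replicate 2 (52.2), the 2 longest lists, and nowhere else. Over all protein-coding transcript starts of Prtn3, peaks were called in IgG replicates 1 and 3 instead, at percentiles of 37.5 and 52.8, and in no other library. The difference between IgG and Delta1-cultured means changed from -16.3 to 30.1 percentage points and passed no test either way (adjusted p of 0.622 and 0.145, exact permutation test).

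Ly6c2 encodes a GPI-anchored surface antigen of monocytes and neutrophils. Its promoter (chr15:75111877-75112086) had percentiles of 75.1, 80.0 and 79.6 in the 3 IgG libraries and no peak in the other 9. The 3 IgG values lay within 5 percentage points of each other, and IgG replicate 3 was not the lowest. Ly6c1 is a near-identical neighbour, so the assignment of reads between the copies is uncertain. No peak was called at the Ly6c1 promoter in any library.

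**Figure D1:**
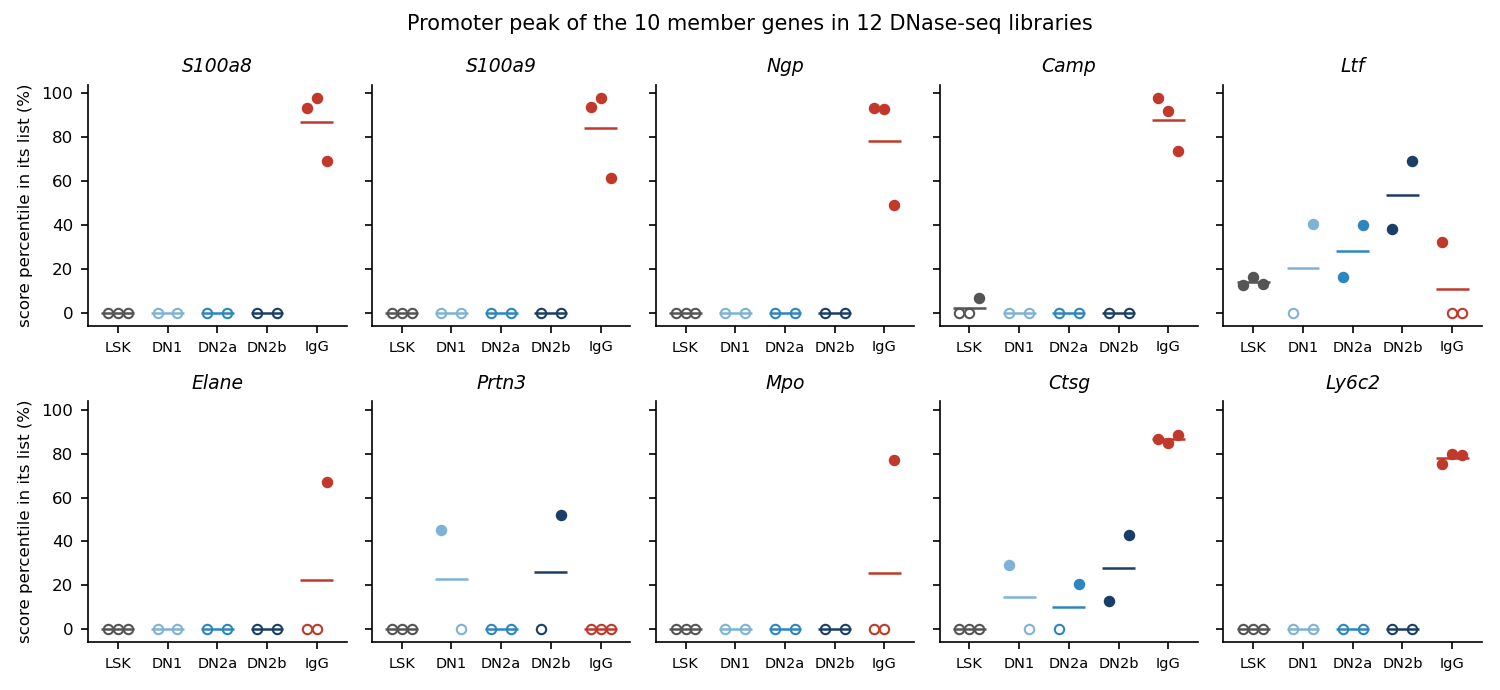
Score percentile of the promoter peak (vertical axis, percent) of each member gene in the 12 libraries by group. Filled points are libraries with a peak, open points at 0 are libraries with none, and lines are group means. For S100a8, S100a9, Ngp, Camp, Ctsg and Ly6c2 all 3 IgG points lie above every other point, whereas Elane and Mpo have 1 raised IgG point each and Ltf is highest in DN2b.

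The comparison of IgG with Delta1-cultured cells asks which promoters differ between progenitors grown without the Notch ligand and T cell precursors grown with it. All 6 Delta1-cultured libraries were also sorted by KIT, CD44 and CD25 and the 4 DN2 libraries had IL-7, so ligand, sort and, in part, IL-7 cannot be told apart here. Of the 10 members, 6 were called higher in IgG and none lower: S100a8, S100a9, Ngp, Camp, Ctsg and Ly6c2. Over all 13606 promoters with a peak in any library, 1.0% were called higher in IgG and 37.5% lower. Mean percentiles in IgG were 86.8 ± 15.3 (SD, n = 3) for S100a8, 84.3 ± 19.99 for S100a9, 78.4 ± 25.6 for Ngp, 87.7 ± 12.6 for Camp, 86.5 ± 1.79 for Ctsg and 78.2 ± 2.69 for Ly6c2. In the 6 Delta1-cultured libraries the mean was 17.6 for Ctsg and 0 for the other 5 genes. At an unadjusted p below 0.05 the counts were the same, 6 members higher and none lower, with 1.87% and 48.6% of all promoters. Each of the 6 had p = 0.0119, the smallest that the 84 splits of 3 against 6 libraries allow, and an adjusted p of 0.0309 (two-sided exact permutation test, Benjamini-Hochberg over all promoters). Differences were 22.3 for Elane, 25.7 for Mpo and -23.3 percentage points for Ltf, with adjusted p of 0.460, 0.460 and 0.261 in the same exact permutation test. The median difference was 73.6 percentage points over the members and -10.3 over all promoters.

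The adjusted p depends on how many other promoters pass, while the separation of the libraries does not. When only the 32952 highest-scoring peaks of each library were kept, the 6 differences were 75.8 to 86.4 percentage points, all 6 members still had every IgG library above every Delta1-cultured library, and the adjusted p rose to 0.0559 (exact permutation test). At that length no promoter passed after adjustment in either direction, 1349 were higher and 2498 lower at an unadjusted p below 0.05 (exact permutation test), and 9.87% of 11528 promoters were separated higher and 15.8% lower in IgG. In the full lists 1.73% were separated higher. No member had every IgG library below every Delta1-cultured library, a pattern of 39.2% of all promoters in the full lists. The call was also lost without IgG replicate 1 (adjusted p = 0.0782), replicate 2 (0.0886) or replicate 3 (0.0832), where fewer splits exist, with all 6 members separated in each case (exact permutation test). Without IgG replicate 3 the differences were 95.6 for S100a8, 95.8 for S100a9, 93.2 for Ngp, 94.7 for Camp, 68.0 for Ctsg and 77.6 percentage points for Ly6c2. In the upper 50% of each list by score, Ngp no longer passed, at an adjusted p of 0.145 in the exact permutation test, because its peak in IgG replicate 3 lay below that limit, and the other 5 did.

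**Figure D2:**
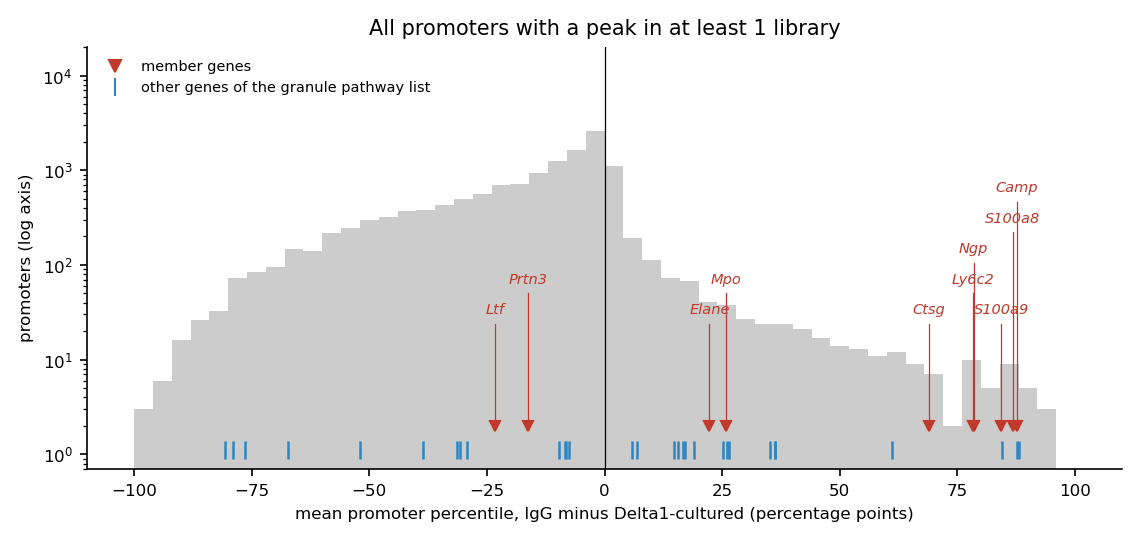
Number of promoters (log axis) by the difference in mean score percentile between IgG and Delta1-cultured libraries, in percentage points, for the 13606 promoters with a peak. Red triangles are the member genes and blue ticks the 30 other genes of the granule pathway list that had a peak. 6 members lie between 68.9 and 87.7, in the sparse right tail, and Ltf and Prtn3 lie to the left of 0.

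Against uncultured LSK cells the same 6 members had every IgG library above every LSK library, compared with 2.95% of all promoters, and none the reverse, compared with 45.1%. With lists of equal length the 6 stayed separated, beside 9.93% of all promoters. With 3 libraries a side the smallest p of the exact permutation test is 0.1, so no call was possible. Between the 4 DN2 libraries and the 5 LSK and DN1 libraries only Camp, Ltf, Prtn3 and Ctsg could differ, since the other 6 members had no promoter peak in any of these libraries. None of the 4 was called, nor was any promoter after adjustment (exact permutation test), and at an unadjusted p below 0.05 the count was 0 of the 4, with 3.82% of all promoters higher and 5.23% lower in DN2. None had its DN2 libraries wholly above or below the others, where 1.71% and 2.17% of all promoters did. The largest difference among the members was that of Ltf, 40.9 in DN2 against 16.5 in LSK and DN1 (p = 0.0873, adjusted p = 0.609, exact permutation test). With 1 library left out this Ltf difference ranged from 14.9 to 32.6 percentage points. At equal list lengths it was 0, since none of these libraries kept an Ltf promoter peak.

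The number of member promoters with a peak was 1.33 ± 0.577 (SD, n = 3) in LSK, 1.5 ± 0.707 (n = 2) in DN1, 1.5 ± 0.707 (n = 2) in DN2a, 2.5 ± 0.707 (n = 2) in DN2b and 7 ± 1 (n = 3) in IgG. By library it was 7, 6 and 8 in IgG and at most 3 elsewhere, so IgG did not overlap the other groups. Of all promoters, 40.9% to 44.1% had a peak in IgG libraries and 48.3% to 57.1% in the other libraries. With lists of equal length it was 0 in every LSK, DN1, DN2a and DN2b library.

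Sites elsewhere in the windows were found in every group, also where the member promoters were closed. Sites outside the members' own promoters, among them the 19 at promoters of other genes, numbered 34.3 ± 2.52 (SD, n = 3) per LSK library, 54.0 ± 12.7 (n = 2) in DN1, 39.5 ± 6.36 (n = 2) in DN2a, 55.5 ± 19.1 (n = 2) in DN2b and 40.7 ± 6.11 (n = 3) in IgG. With lists of equal length the order turned, and IgG had the most such sites, 40 per library, against 25 (DN1), 26.3 (LSK), 27 (DN2a) and 28 (DN2b). The map of sites by distance shows which of them were particular to a group and which were common to all libraries. Of the 124 sites, 15 (12.1%) had a peak in all 12 libraries, as had 7.68% of all consensus sites. Among these 15, 5 adjoined each other about 25 kb downstream of Ly6c2 and were counted separately. A peak in 1 library only was found at 31 (25%), against 32.7% of all consensus sites. The windows of S100a8 and S100a9 overlap, as do those of Elane and Prtn3, and a site is named by the member whose start is nearest.

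**Figure D3:**
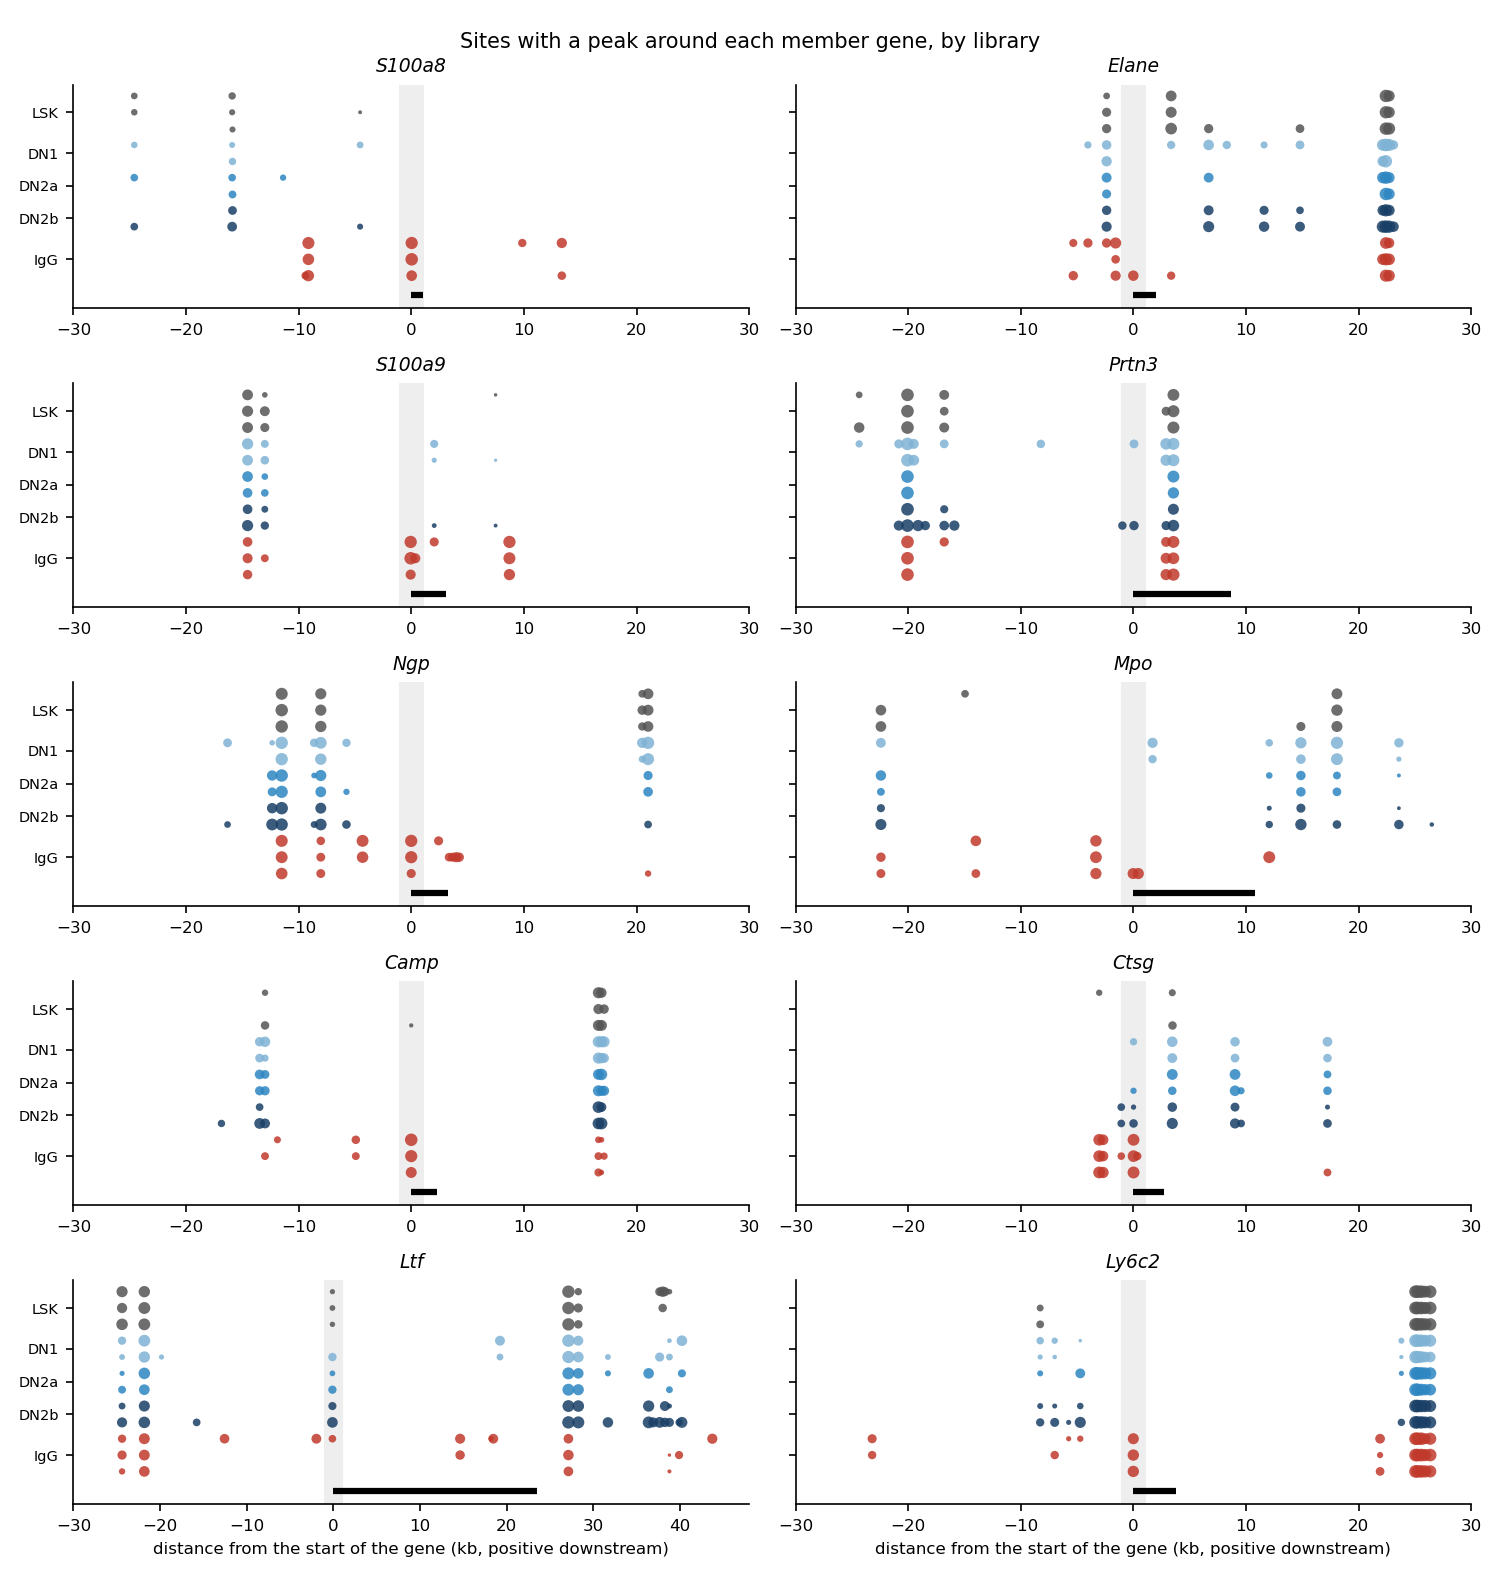
Sites with a peak by distance from the start of each member (horizontal axis, kb, positive downstream of the start in the direction of the gene), with 1 row per library and rows coloured by group. Point size grows with the score percentile, the grey band is the promoter window of 1 kb on each side, and the black bar is the gene body. IgG points fill the promoter band of S100a8, S100a9, Ngp, Camp, Ctsg and Ly6c2, and the columns shared by all 12 rows include the site 3.546 kb into Prtn3 and a row of sites about 25 kb downstream of Ly6c2.

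With a peak in every IgG library and in no Delta1-cultured library there were 12 member sites, 5 at promoters of members and 7 elsewhere, a share read against 2.28% of all consensus sites. With a peak in every Delta1-cultured library and in no IgG library there were 6, none at a member promoter, against 6.94% of all sites. Between IgG and LSK, whatever the Delta1-cultured libraries held, 11 sites had a peak in every IgG and no LSK library. The reverse was found at 4, with 2.51% and 7.87% of all sites. With lists of equal length 14 sites had a peak in every IgG and no Delta1-cultured library, beside 7.45% of all sites. Likewise 13 had a peak in every IgG and no LSK library, beside 7.24%. The sites with the reverse pattern fell to 1 in each comparison. Found in all 3 IgG libraries and in no other of the 12 were 10 member sites, or 8.06% of 124, where 1.89% of all sites had this pattern. No test was made on these counts, since neighbouring sites are not independent.

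The 7 distal sites open in every IgG library and in no Delta1-cultured library lay from 1585 to 21898 bp from the start of their member. For 4 of them the highest-scoring 150 bp peak is printed, so that 4 different members are shown, and they are not the 4 with the highest percentiles. They are given on the plus strand of mm10 from chr3:90686917-90687066 (8709 bp downstream of the S100a9 start, between genes), chr11:87790197-87790346 (3329 bp upstream of Mpo, between genes), chr14:56105537-56105686 (3038 bp upstream of Ctsg, between genes) and chr10:79884577-79884726 (1585 bp upstream of Elane, between Prtn3 and Elane). Capitals again mark the C/EBP or PU.1 letters.
S100a9 downstream: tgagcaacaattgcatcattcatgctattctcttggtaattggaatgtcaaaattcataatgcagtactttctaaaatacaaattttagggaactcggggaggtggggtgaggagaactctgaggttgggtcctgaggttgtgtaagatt
Mpo upstream: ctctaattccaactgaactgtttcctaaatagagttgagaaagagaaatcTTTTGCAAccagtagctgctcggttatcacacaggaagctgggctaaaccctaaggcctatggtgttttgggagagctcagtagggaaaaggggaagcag
Ctsg upstream: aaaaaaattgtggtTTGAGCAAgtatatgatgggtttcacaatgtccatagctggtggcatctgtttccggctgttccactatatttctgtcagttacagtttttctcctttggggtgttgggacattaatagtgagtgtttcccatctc
Elane upstream: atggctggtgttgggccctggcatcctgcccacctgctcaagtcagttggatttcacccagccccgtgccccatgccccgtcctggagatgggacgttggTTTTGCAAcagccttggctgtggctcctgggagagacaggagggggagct

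The S100a9 downstream site had percentiles of 93.2, 89.1 and 78.0 in IgG and no peak in any other library. A further site between the S100 genes and S100a7a, 9136 bp upstream of S100a8, had 90.8, 82.5 and 78.8 in IgG and none elsewhere. The Mpo upstream site had 80.5, 86.2 and 77.2 in the 3 IgG libraries and none elsewhere, although only IgG replicate 3 had a peak at the Mpo promoter itself. The Elane upstream site likewise had 76.0, 43.4 and 62.8 in IgG and none elsewhere, while the Elane promoter was open in IgG replicate 3 alone. So at Mpo and Elane all 3 IgG libraries shared a site upstream of a promoter that was called in 1 of them.

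The Ctsg upstream site had percentiles of 84.0, 84.7 and 87.4 in IgG, 21.2 in LSK replicate 1 and no peak in the other 8 libraries. A second site 2698 bp upstream of Ctsg had 70.7, 68.2 and 78.8 in IgG and no peak elsewhere. Downstream of Ly6c2, at 21898 bp from its start, a site had 57.1, 20.03 and 44.7 in IgG and none elsewhere. A further 7 sites had a peak in 2 of the 3 IgG libraries and in no other library. This count has no share over all sites to read it against. At the site of this kind 4335 bp upstream of Ngp, the percentile was 88.1 and 81.7 in IgG replicates 1 and 2. It had no peak in replicate 3, the library with the weakest Ngp promoter.

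Other sites were open in Delta1-cultured cells and absent in IgG. At the site 13475 bp upstream of Camp (chr9:109862997-109863186, between genes) the percentile was 52.2 and 45.2 in DN1, 56.5 and 50.6 in DN2a, and 33.3 and 70.8 in DN2b, with no peak in LSK or IgG. At the site 9022 bp downstream of the Ctsg start, towards the mast cell protease gene Mcpt8, it was 53.7 and 45.2 in DN1, 71.6 and 67.7 in DN2a, and 47.0 and 62.2 in DN2b, again with no peak in LSK or IgG. These 2 were the only member sites found in all 6 Delta1-cultured libraries and nowhere else, which is 1.61% of the member sites against 1.90% of all sites. With lists of equal length neither had a peak in DN1. The Camp site then had 9.59 and 13.5 in DN2a and 1.2 in DN2b replicate 2, and the Ctsg site 41.02 and 43.5 in DN2a and 1.47 in DN2b replicate 1.

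Downstream of Ltf, at 28271 bp from its start and 9977 bp from that of the chemokine receptor-like gene Ccrl2, the percentile was 30.2, 49.3 and 42.0 in LSK, 60.7 and 70.6 in DN1, 67.3 and 75.9 in DN2a, and 82.3 and 90.0 in DN2b, with no peak in IgG. Both DN2b values were above those of all other libraries there. The site 15906 bp upstream of S100a8, at the promoter of S100a7a, had 18.6 to 30.2 in LSK, 18.3 and 30.5 in DN1, 32.6 and 35.1 in DN2a, and 44.9 and 57.02 in DN2b, with no peak in IgG. This weak site was absent from all libraries at equal list lengths, whereas the Ltf downstream site stayed in 5 of the 6 Delta1-cultured libraries. A site 14871 bp downstream of the Mpo start had 49.0 to 79.6 in Delta1-cultured libraries, 48.7 in LSK replicate 3 and none elsewhere. At equal list lengths it kept a peak in all 6 Delta1-cultured libraries, at 2.60 to 35.2, and had none in IgG. The site 3452 bp downstream of the Ctsg start had 42.3 to 75.6 in Delta1-cultured libraries and none in IgG. In LSK it had 27.3, no peak and 42.0, and at equal list lengths it stayed in 5 of the 6 Delta1-cultured libraries.

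A further set of sites had its highest percentiles in LSK or DN1 and lower ones, or no peak, in DN2. The site downstream of Mpo, 18071 bp from its start in an intron of the lactoperoxidase gene Lpo (chr11:87811557-87811746), and the Camp upstream site are printed as examples of regions accessible outside the IgG cultures. Both are highest-scoring 150 bp peaks on the plus strand of mm10, from chr9:109862997-109863146 for Camp and chr11:87811557-87811706 for Mpo, and neither holds the C/EBP or PU.1 letters.
Camp upstream: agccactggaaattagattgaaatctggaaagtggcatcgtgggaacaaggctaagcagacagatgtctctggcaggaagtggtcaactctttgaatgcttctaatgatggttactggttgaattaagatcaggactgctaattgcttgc
Mpo downstream: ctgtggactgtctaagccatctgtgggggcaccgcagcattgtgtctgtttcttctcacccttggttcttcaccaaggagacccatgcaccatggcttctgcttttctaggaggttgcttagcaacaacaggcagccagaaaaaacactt

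The Mpo downstream site had percentiles of 72.4, 79.2 and 74.6 in LSK, 92.7 and 87.3 in DN1, 34.9 and 44.5 in DN2a, no peak and 42.8 in DN2b, and no peak in IgG. Both DN1 values were above all others and every DN2 value was below every LSK value, and with lists of equal length the only DN2 peak left was that of DN2a replicate 2, at 2.76. In an intron of Klhl18, 20495 bp downstream of the Ngp start, the percentile was 33.1, 53.5 and 39.6 in LSK and 64.4 and 27.8 in DN1, with no peak in DN2a, DN2b or IgG. At equal list lengths its only peak was in LSK replicate 2. In the full lists that was the only member site with a peak in every LSK and DN1 library and in no DN2 library, against 0.757% of all sites, and no member site had the opposite pattern (0.782% of all sites). Its neighbour at 21025 bp had 70.1, 72.2 and 68.3 in LSK, 93.5 and 89.1 in DN1, 49.3 and 56.2 in DN2a, no peak and 33.8 in DN2b, and 21.2 in IgG replicate 3 only. The site 3345 bp downstream of the Elane start, 1261 bp from the start of the complement factor D gene Cfd, was an LSK site, with 71.3, 74.2 and 84.7 in LSK, 39.8 in DN1 replicate 1, 40.0 in IgG replicate 3 and no peak elsewhere.

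**Figure D4:**
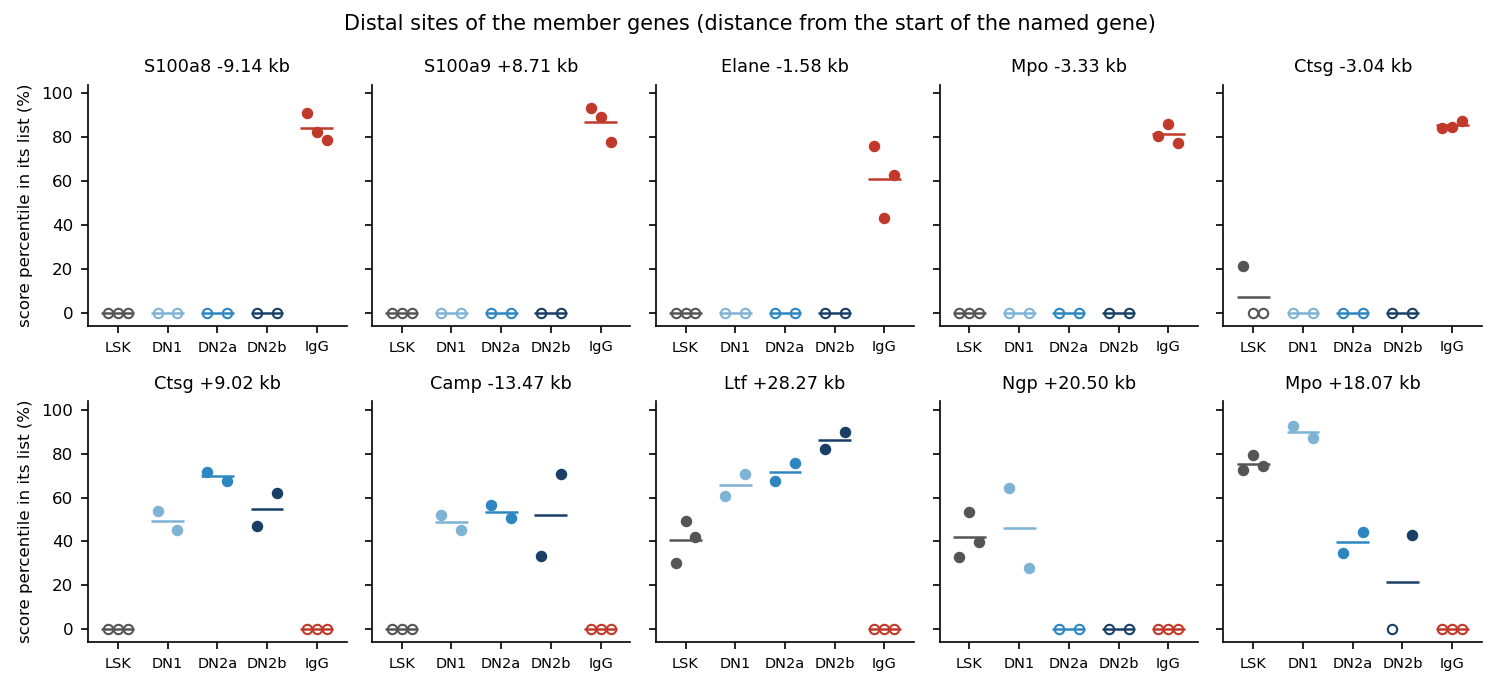
Score percentile (vertical axis, percent) of 10 distal sites in the 12 libraries by group, named by the distance in kb from the start of the gene. Filled points are libraries with a peak, open points at 0 are libraries with none, and lines are group means. The upper row shows sites with a peak in all 3 IgG libraries, and the lower row shows sites with none in IgG, of which the Ltf site rises to 82.3 and 90.0 in DN2b and the Mpo site peaks at 92.7 and 87.3 in DN1.

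Sites common to all 12 libraries were spread over the windows of 7 members and none was a member promoter. They included 5 adjoining sites about 25 kb downstream of Ly6c2, where the site 25048 bp from the start was at 97.7 or above in every library. The site 3546 bp into the GENCODE record of Prtn3, which is 1646 bp upstream of its RefSeq start, had percentiles of 87.4, 89.8 and 90.1 in LSK, 89.4 and 89.1 in DN1, 89.0 and 78.5 in DN2a, 74.4 and 82.4 in DN2b, and 88.5, 84.7 and 92.8 in IgG. Chromatin next to Prtn3 was thus open in cells of every group, including those with no peak at a Prtn3 start. Downstream of Ltf, the site 27131 bp from its start had 93.2 to 96.0 in LSK and DN1, 86.9 to 95.5 in DN2, and 55.6, 66.9 and 56.4 in IgG, the lowest values of the 12.

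The wider granule pathway was read from 41 further genes, of which 30 had a promoter peak in any library. Against Delta1-cultured cells 5 were called higher and 6 lower in IgG, with an adjusted p of 0.0309 each (exact permutation test), beside the 1.0% and 37.5% of all promoters. The median difference of the list was 10.7 percentage points. With 37.5% of all promoters called lower, the falls counted in the lists below are no more frequent than over all promoters, and they are given as values of single genes. Of 12 genes for later granules and neutrophil products, 7 had a peak, 3 rose in IgG and none fell. Hp, which encodes haptoglobin, had percentiles of 91.5, 84.0 and 88.8 in IgG and no peak elsewhere. Mmp8, the neutrophil collagenase, had 83.5, 80.0 and 90.2 in IgG and no peak elsewhere. Lcn2, which encodes the siderophore-binding lipocalin 2, had 83.5, 83.3 and 50.9 in IgG, 23.0 and 45.6 in DN2b and none elsewhere. IgG replicate 3 was the lowest of its group at Lcn2, as at the S100 genes.

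Of 8 genes for primary granules and their processing, 6 had a peak, 1 rose and 2 fell. Ms4a3, a marker of granulocyte and monocyte progenitors, had 88.1, 90.0 and 85.1 in IgG, 10.2 in LSK replicate 1 and none elsewhere. The 2 that fell are inhibitors of granule proteases: Cst7 (cystatin F), with no peak, no peak and 34.9 in IgG against 84.7 to 93.4 in Delta1-cultured libraries, and Serpinb1a, with 42.3, no peak and 29.5 against 57.9 to 86.3. In LSK, Cst7 had 24.2 to 58.9 and Serpinb1a 67.6 to 70.6. Among 11 relatives of the S100 and Ly6 genes 7 had a peak, none rose and 2 fell. S100a4 had no peak in IgG replicates 1 and 2 and 52.8 in replicate 3, against 79.7 to 92.7 in Delta1-cultured libraries. Its LSK values were 84.8 to 92.8. Ly6e had no peak in IgG, 34.7 to 44.6 in LSK and 63.2 to 93.0 in Delta1-cultured libraries. S100a1 and S100a13, which share a promoter peak, had 69.8, 58.8 and 46.9 in IgG against at most 62.2 in Delta1-cultured libraries and did not pass (adjusted p = 0.0944, exact permutation test).

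All 10 regulators and receptors had a peak, 1 rose and 2 fell. Cebpa, the factor that starts the granulocyte programme, rose by 19.1 percentage points, to 94.7, 96.5 and 95.1 in IgG from 67.7 to 84.2 in Delta1-cultured libraries. Gfi1, a repressor needed for neutrophil maturation that T cell precursors also use, had no peak in IgG against 69.7 to 92.0 in Delta1-cultured libraries. In LSK, Gfi1 had a peak in replicate 2 alone, at 47.0. Myb, a factor of progenitors, had 68.7, 35.3 and 52.8 in IgG against 88.4 to 94.6, and 75.5 to 77.7 in LSK. Between DN2 and the LSK and DN1 libraries no gene of the list was called, and at an unadjusted p below 0.05 it was 1 higher and 2 lower of 30 (exact permutation test), near the 3.82% and 5.23% of all promoters.

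By separation of the libraries, in the full lists every IgG library was above every Delta1-cultured library at 8 of the 30 promoters of the list and below at 6, beside 1.73% and 39.2% of all promoters. The 8 were the 5 called higher and Cebpd, Spi1 and Itgam, which encode C/EBP delta, PU.1 and the integrin CD11b. With equal list lengths none of the genes passed after adjustment, and the counts were 12 above and 5 below, beside 9.87% and 15.8% of all promoters. The 12 took in these 8, with differences of 47.3 percentage points for Cebpa, 68.5 for Cebpd, 39.2 for Spi1 and 66.4 for Itgam, and added the lysozyme gene Lyz2 (56.3), S100a1 and S100a13 (54.6 each) and S100a11 (39.4). Cebpd, Spi1, Itgam and the additions were named after their values were seen. The 5 were Cst7 (-64.5), Gfi1 (-55.5), Ly6e (-52.6), S100a4 (-51.6) and Myb (-30.5), while Serpinb1a, at -28.8, was no longer separated.

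Markers of other cell types moved with the groups as well. Their counts are read beside the share of all promoters with a peak, 40.9% to 44.1% in IgG and 48.3% to 57.1% elsewhere. T precursor markers had no promoter peak in IgG (0 of 8 in each library), 1 of 8 in each LSK library, 3 in each DN1 and 6 or 7 in each DN2 library, with Il2ra, Cd3e and Cd3g open in the 4 DN2 libraries alone. Of 7 monocyte and macrophage markers, 3 or 4 had a peak in each IgG library and 1 to 3 in each other library, and their summed percentiles were 167 to 261 in IgG, 86.3 to 108 in LSK, 83.6 to 89.4 in DN1, 54.4 to 69.2 in DN2a and 69.8 to 143 in DN2b. Adgre1, the macrophage marker F4/80, had 74.3, 58.8 and 46.9 in IgG, 18.6 in LSK replicate 3 and none elsewhere. Cd68, a lysosomal protein of macrophages, had 97.9, 96.9 and 97.7 in IgG against 53.1 to 91.4 in the other libraries, and Cd14, an endotoxin co-receptor, had 67.7 and 74.5 in IgG replicates 1 and 3 and at most 20.6 elsewhere. Csf1r had a peak in IgG replicate 2 alone (11.4), Ccr2 in IgG replicate 3 alone (42.4) and Cx3cr1 in no library. Mrc1, the mannose receptor, had none in IgG, 16.1 in DN2a replicate 1 and 10.8 and 57.02 in DN2b. Of 6 progenitor markers, 2 to 4 had a peak in IgG and 4 in each other library, and the summed percentile was 92.3 to 239 in IgG against 271 to 360 elsewhere. Of 6 mast cell and basophil markers, 0 or 1 had a peak in IgG and 1 to 3 elsewhere. Of 5 erythroid markers none had a peak in IgG and 1 or 2 had one in each other library. The B lineage genes Cd79a, Cd79b and Pax5 had none in any library. The B lineage genes Vpreb1 and Ebf1 did, Vpreb1 at 84.6 to 94.3 in all 12 libraries and Ebf1 in 10, with a peak in IgG replicate 3 alone of the IgG group (29.5). What monocytes, remaining progenitors or other cells in the IgG cultures contribute to the values at the member genes was not tested.

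**Figure D5:**
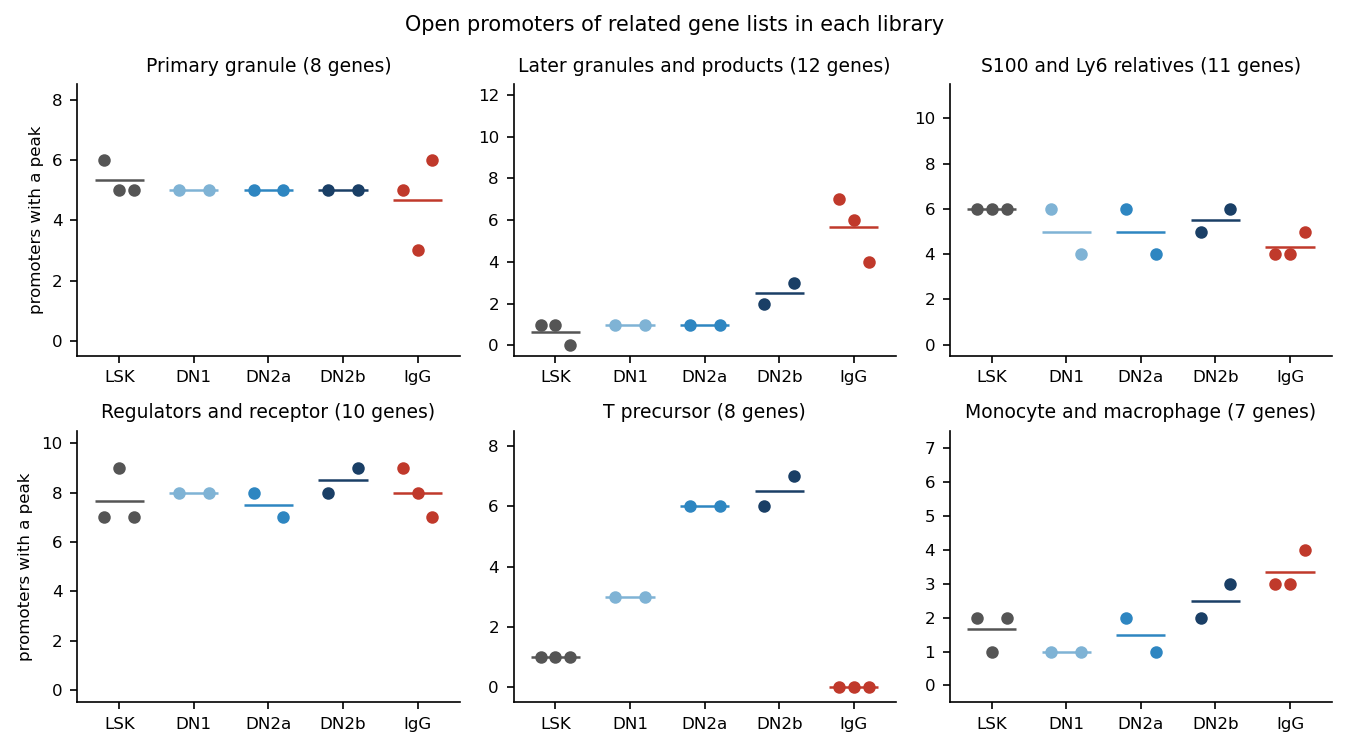
Number of promoters with a peak (vertical axis) in each library for 4 lists of granule pathway genes and 2 lists of cell type markers, by group, with lines at group means. The later granule genes have 4 to 7 open promoters in IgG and 0 to 3 elsewhere, the T precursor list runs from 0 in IgG to 6 or 7 in DN2, and the primary granule and regulator lists differ little in number between groups. Of all promoters, 40.9% to 44.1% have a peak in IgG libraries and 48.3% to 57.1% in the others.

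Apart from Prtn3, taken here at its GENCODE start, the member promoters were poor in CpG. In the 2 kb around the start the observed over expected CpG ratio had a median of 0.186 over the 10 members, from 0.0492 at Ly6c2 to 0.544 at Prtn3, against 0.478 over all protein-coding genes. In the 200 bases before the start the C/EBP letters TTGCNNAA occurred at 3 of 10 members (Ngp, Camp and Ltf), where 7.23% of all 21755 such windows hold them. The PU.1 letters GAGGAA occurred at 5 (S100a8, Ltf, Elane, Mpo and Ly6c2), against 18.8% of all windows. The RUNX letters TGTGGT occurred at 4, against 10.47%, the MYB letters CAACNG at 5, against 23.2%, the GATA letters AGATAA at 3, against 6.81%, the RBPJ letters TGGGAA at 2, against 17.8%, and the TCF1 letters CTTTGA at 1, against 10.7%. Both strands were searched, and a C/EBP and a MYB match overlap in the Camp promoter and in the Elane upstream site. Of the 4 printed distal peaks open in IgG, those of Mpo, Ctsg and Elane hold the C/EBP letters, which 7.89% of all consensus sites do in their highest peak. The other distal sites with this pattern were not searched singly, so no share over all 7 is given. A match is a description of letters and does not show that a factor was bound.

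Over the 12 libraries the promoter percentiles of S100a8, S100a9, Ngp, Camp, Ctsg and Ly6c2 correlated with each other at Pearson's r from 0.881 to 0.998. Against Ltf their r was between -0.366 and -0.165. These values rest on the difference between the 3 IgG libraries and the others, and the points share library and list length, so no test was made. By the same measure, other genes were compared among promoters with a peak in at least 3 libraries. Elane, Mpo and Prtn3 had fewer and were left out of the correlations. The genes most like S100a8 were Orm1 (r = 0.999), Fcnb (0.998) and Adamts5 (0.997). Those most like Camp were Fcnb (0.999), Orm1 (0.998) and Ugt1a6b (0.995), so that Orm1, an acute phase protein gene, and Fcnb, a ficolin gene, recurred in both. Ngp was nearest to Ttc24, Nlrp12 and Adhfe1 (0.995 or above), S100a9 to Ttc24, Fcnb and Orm1 (0.994 or above), Ctsg to Mocos (0.969), Il23a (0.943) and Cd300ld (0.943), and Ly6c2 to Rnf11, Slc11a1 and Wdtc1 (0.999 or above). Ltf was nearest to Kdr (0.888), Psd3 (0.886) and Ankrd55 (0.878).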

How the data were processed

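DNase-seq was carried out on 12 libraries in 5 groups, taken from the labels. The authors trimmed adapters, aligned paired reads to mm10 with BWA (0.7.12 in the submitters' processing notes, with SAMtools 1.2) and ran hotspot2 on each library separately, with peaks kept at an FDR of 0.05. Each deposited list gives 150 bp peaks with a score from 1 to 150 of no stated meaning, so the score served only to rank peaks within a list. A caller finds more peaks in deeper or better digested libraries, and read depth is unknown.

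Percentiles, consensus sites and promoters were computed on autosomes and X with GENCODE M21 starts in Python 3.11.15 (numpy 2.4.6, pandas 2.3.3, scipy 1.17.1) and tested on simulated data. Promoters of all 13606 genes with a peak were compared by a two-sided exact permutation test over libraries with Benjamini-Hochberg adjustment, called at an adjusted p below 0.05, and by whether the libraries of the groups separate. Replicates came from independent LSK isolates, but DN populations can share an isolate and the labels do not say which, so libraries were treated as independent and replicate numbers only name them. No pair of lists was identical.

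The named distal site of each member was the separated site with the largest difference, further sites were chosen after their values were seen, and named pathway genes were up to 10 called or separated ones by size of difference, with others (Cebpa among them) named after their values were seen. The members and lists were chosen with earlier results of these data known. Alternatives were equal list lengths, the upper 50% of each list, promoters taken as 500 bp or 2.5 kb each side, every annotated protein-coding start, flanks of 10 and 50 kb, merging within 150 bp, and leaving out each library in turn. Sequences and CpG ratios come from GRCm38.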

Additional observations from a re-analysis of the deposited data

How the results depend on the processing

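The separation of 6 member promoters in IgG from Delta1-cultured libraries gave 6 in all settings except the upper 50% of each list, where it was 5, and the differences of the 6 genes kept their sign in every setting. The number called higher in IgG was 0 at equal list lengths and 0 to 6 when 1 library was left out (0 without any 1 of the IgG libraries). Equal list lengths left 0 open member promoters per library in LSK, DN1, DN2a and DN2b, 1 site closed in IgG against Delta1-cultured cells, 1 open and 0 closed in DN2, 1 closed in IgG against LSK, and 26.3 (LSK), 25 (DN1), 27 (DN2a), 28 (DN2b) and 40 (IgG) distal sites (all outside the members' promoters) per library. The upper 50% of each list left 0, 0, 0 and 1 open member promoters in LSK, DN1, DN2a and DN2b, and 23, 31.5, 25.5, 34.5 and 26.7 distal sites in LSK, DN1, DN2a, DN2b and IgG. A promoter window of 2.5 kb gave 2.33, 4.5, 2.5 and 4 open member promoters in LSK, DN1, DN2a and DN2b. Flanks of 10 kb gave 0 sites closed in DN2, 2 closed in IgG against LSK, and 10.3, 21.5, 13, 20 and 19 distal sites in the 5 groups in that order, and flanks of 50 kb gave 3 sites open in DN2, 8 closed in IgG against LSK, and 60.3, 92.5, 82.5, 109.5 and 66 distal sites. Merging within 150 bp gave 27.7 (LSK), 32.5 (DN2a) and 32 (IgG) distal sites. With 1 library left out, sites open in DN2 ranged from 0 to 1, sites closed in DN2 from 1 to 2, and sites closed in IgG against LSK from 5 to 7. Of the other alternative counts and levels, 183 moved less than 1.5 times or by less than the spread between libraries. For single genes 251 alternative values stayed on their side of the threshold and 25 no longer passed it. Prtn3 had no promoter peak left at equal list lengths and gives no value there. No paired analysis was possible because the labels do not say which libraries share an LSK isolate, and replicate numbers only name libraries. List length limits what can be said of closed sites in IgG, whose lists were the shortest, and a peak missing there can be one that was not called.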
